A study of Mus musculus with 2 samples.

Results

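Amino acid transporter genes were compared between NIH3T3 mouse fibroblasts stably transfected with the pcDNA3.1-MARVELD1 plasmid and NIH3T3 cells with the empty pcDNA3.1 vector, with 1 array for each. The members are the genes of the SLC1, SLC3, SLC7, SLC36 and SLC38 families, chosen by the gene names that the scanner files give their probes, with Slc1a7 left out. They are 38 of the 19712 named genes on the arrays, read by 73 probes on 17 chromosomes. Of these, 37 belong to a transport system, while Slc7a6os was taken by the letters of its name alone. It is a neighbour of Slc7a6 whose probe lies on the opposite strand, and it encodes no transporter. Slc38a6 had no probe under that name and was not analysed here.

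NIH3T3 is an established line of mouse embryonic fibroblasts, and MARVELD1 is a membrane protein with a MARVEL domain. The plasmid backbone, which drives its insert from a cytomegalovirus promoter, was common to both groups, and per the labels stable lines were selected with G418, a drug that spares cells carrying the plasmid's resistance gene. The same medium, DMEM with serum, glutamine and antibiotics, is given for both. Whether a line was 1 clone or a pool of clones is not given in the sources used here. The study asked how MARVELD1 influences the expression profile, and with 1 array per group there is no replicate, no test and no p-value for any difference below.

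Cells take up amino acids through carriers with overlapping substrates, named after transport systems. Small neutral amino acids enter with sodium through system A, and system ASC exchanges neutral amino acids such as glutamine. The SLC7 light chains of systems L, y+L and xc- work only when bound to a heavy chain, Slc3a2 (CD98), which brings them to the cell surface. Cationic amino acids enter through system y+, glutamate through system X-AG, and SLC36 carriers such as Slc36a1 move small amino acids together with protons. In fibroblasts, uptake through these carriers supplies protein synthesis, glutathione and the amino acid signal to mTORC1.

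The probes on which the main differences rest are 60 bases long, and the first 30 bases of each are shown to identify the stretch that was read. They are those of the 5 genes past 2-fold and of Slc3a2, whose probes differed in direction. Positions are those of the whole probe on mouse build mm9, as the scanner files give them, and the bases run 5′ to 3′.
Slc7a8, chr14:55341137-55341196, minus strand: tatttcttttggattttttaatgtatggcg
Slc7a4, chr16:17573432-17573491, minus strand: agccattggagctgactacagcacactacg
Slc38a1, chr15:96402059-96402118, minus strand: tctagagtccagtgtgtcttagatccccat
Slc38a1, chr15:96402400-96402458, minus strand: agaaacagacgtgcccaaaataagaatttt
Slc7a2, chr8:42002869-42002928, plus strand: ttttttactgtggacaaaaaagacacagat
Slc7a11, chr3:50169700-50169759, minus strand: agtaatgtatcaggagctttatgtaaatgt
Slc3a2, chr19:8782189-8782248, minus strand: gagggcttgctgttacagttcccctttgtg
Slc3a2, chr19:8788183-8788242, minus strand: gcaccatgagccaggacaccgaagtggaca
Whether these stretches lie in coding sequence or in untranslated regions is not known, since an mm9 annotation was not used here.

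Values are processed fluorescence intensities of single spots, in arbitrary units. A difference is the log2 of the intensity relative to the 75th percentile of its own array, MARVELD1 minus empty vector, so a positive value is higher on the array labelled MARVELD1. Intensities of different probes are not comparable as levels, and a gene is represented by its brightest probe. The share of spots well above background was 69.0% for MARVELD1 and 68.7% for empty vector. The brighter probe of Marveld1 read 6292.8 on the array that carries its label and 8724.7 on the empty vector array, a log2 difference of -0.34, so the targeted gene was not higher. Its other probe gave -0.42, and whether either probe reads the insert is not known. Directions therefore rest on the array's label. All 13 fibroblast markers were detected, with 0 past 2-fold higher and 4 lower on the array labelled MARVELD1. Among all detected named genes the shares were 5.39% higher and 3.53% lower. The 4 were Pdgfrb (4.30-fold), Col3a1 (2.94-fold), Fbn1 (2.49-fold) and Fn1 (2.18-fold). Other probes gave log2 differences of -0.10 for Col3a1, -2.13 for Fbn1 and -2.47 for Fn1. By their brightest probes 4 of the 13 markers were above 0, beside 10816 of all 16531 detected named genes. The epithelial markers Epcam, Cdh1, Krt19 and Cldn4 were above background on neither array. Of the 4 epithelial markers detected, Krt5 was 2.02-fold and Krt18 at least 2.35-fold higher, and Krt14 was 13.9-fold lower. Of 7 neural and glial markers Aqp4 was at least 2.82-fold higher, and 0 of the 6 endothelial and 6 macrophage markers passed 2-fold. The part of these differences in the results below was not tested.

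Most amino acid transporter genes differed little between the arrays, and 5 passed 2-fold. Slc7a8, Slc7a4 and Slc38a1 were higher on the array labelled MARVELD1, and Slc7a11 and Slc7a2 were lower. A probe counts as detected when its signal was well above background on 1 array or both, and 33 member genes had such a probe. All 33 were measured on both arrays by their brightest probe. Slc1a3, Slc38a5, Slc3a1, Slc7a10 and Slc7a13 were above background on neither array. Past 2-fold were thus 3 of the 33 higher (9.09%) and 2 lower (6.06%), beside 5.39% higher and 3.53% lower among all 16531 detected named genes. At those shares 33 genes would hold 1.78 higher and 1.17 lower, so the members' counts exceed the shares of all genes by about 1 gene in each direction. Of all genes past 2-fold 60.4% were higher, but 47.5% with scaling to the array median, 48.3% with quantile normalization and 44.4% after loess. The member counts stayed at 3 and 2 under these scalings, where the shares of all genes were 3.95% higher and 4.37% lower for the array median, 4.02% and 4.31% for quantile normalization, and 3.67% and 4.59% for loess. They were also 3 and 2 in the authors' deposited values (3.07% and 3.96% of all genes). By single probes, 4 of the 56 detected were past 2-fold higher and 3 lower, beside 5.88% and 4.62% of all 29535 detected probes.

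The counts moved with other choices. With normexp background correction 2 members were higher and 0 lower (1.84% and 2.57% of all genes), and with the mean over the probes of a gene 2 and 1 (4.74% and 3.35%). Without the filter on dim probes there were 6 and 2 (6.65% and 3.76%), the added genes being ones that were not detected. A limit of 1.5-fold took in 6 and 3 members (19.4% and 8.96% of all genes), and a limit of 3-fold 2 and 0 (1.21% and 1.31%). The members beyond 3-fold were Slc7a8 and Slc7a4.

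The median difference was 0.33 over the 33 genes and 0.19 over all genes, and 20 of the 33 lay above the median of all genes. The middle of the member distribution, from -0.01 at the 25th percentile to 0.47 at the 75th, was close to that of all genes, from -0.14 to 0.49. Probes printed several times on each array give the technical error of a single spot. For a difference between single spots this SD was 0.65 at intensities under 100 (32 probes), 0.51 from 100 to 200 (22 probes) and 0.24 at 200 or more (121 probes). Each member probe was 1 spot, and many members were dim, so small differences do not exceed this error for them. It covers spot noise only and not the spread between cultures.

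**Figure D1:**
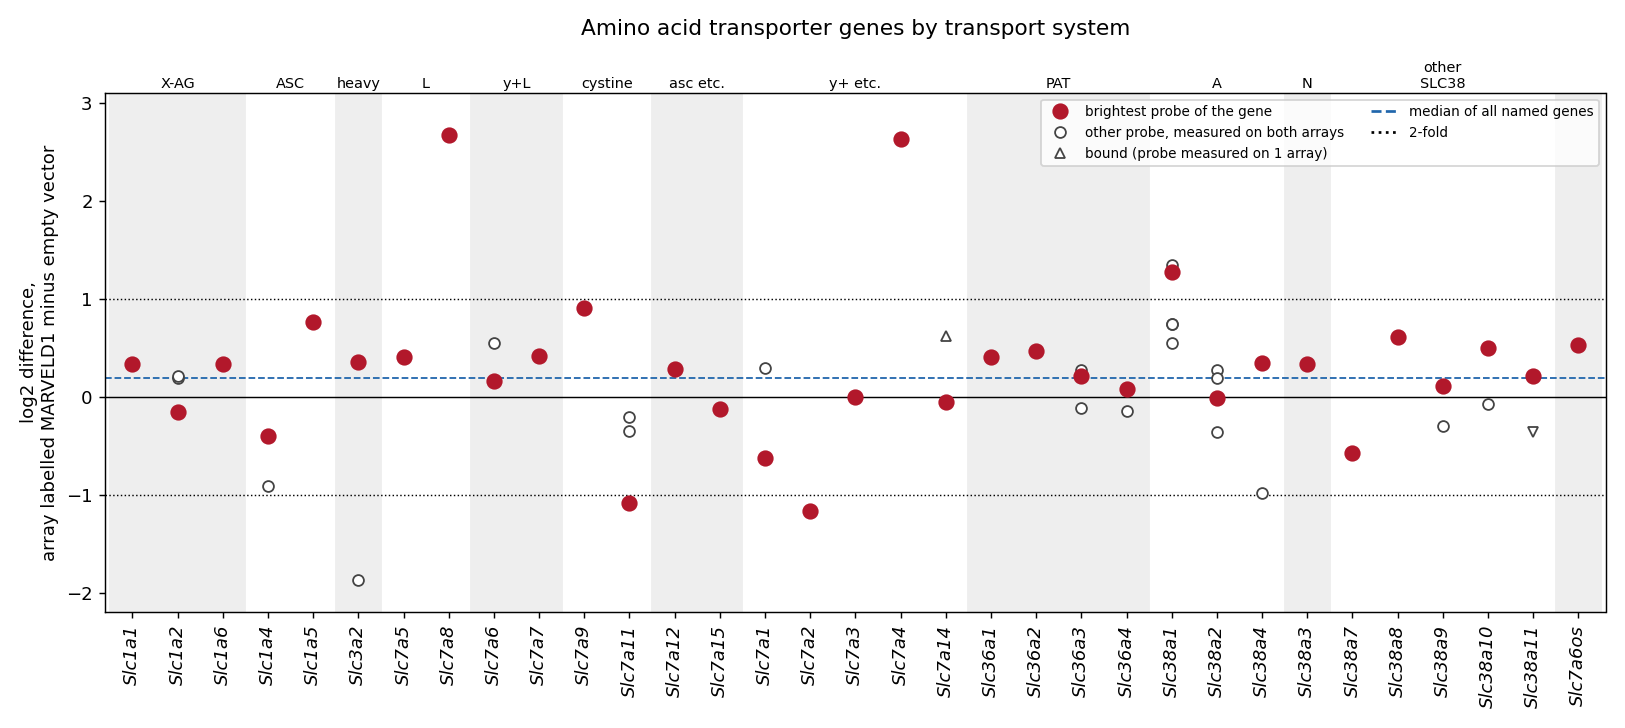
Log2 differences (array labelled MARVELD1 minus empty vector) of every detected probe of the amino acid transporter genes, grouped by transport system. Filled points are the brightest probe of each gene, open points its other probes, triangles bounds, the dashed line the median of all named genes (0.19) and dotted lines 2-fold; Slc7a8 and Slc7a4 stand above 2.6 and the remaining filled points lie between -1.16 and 1.27.

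The largest differences were those of Slc7a8 and Slc7a4. Slc7a8 (LAT2), a system L light chain that exchanges neutral amino acids of all sizes, read 341.1 on the array labelled MARVELD1 and 58.7 on the empty vector array, a 6.35-fold higher value with a log2 difference of 2.67. The error that Feature Extraction gives for the 2 spots put a standard error of 0.28 on it. Slc7a4, which resembles the cationic amino acid transporters but has no established transport activity, read 309.3 and 54.4 on these arrays, 6.21-fold higher with a log2 difference of 2.63 ± 0.30 (standard error of the spots). Both were above 300 on the array labelled MARVELD1 and not far above the lowest well-measured intensity of 36.5 on the empty vector array. Each rests on 1 probe, and the difference is about 4 times the SD of 0.65 seen between single spots under 100. On average both probes read in the range of 100 to 200, where this SD was 0.51. Under 9 other ways of processing, both genes stayed more than 2-fold higher, but most of these could not show otherwise. The filters and the choice of probe leave a gene with 1 probe measured on both arrays as it was. The array median and the authors' deposited values shift all genes alike. Quantile normalization, loess and normexp could change the values, and the smallest were under normexp background correction, at 1.74 and 1.65.

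System L has a second light chain among the members, Slc7a5 (LAT1), which brings in large neutral amino acids such as leucine in proliferating cells. It read 7420 on the array labelled MARVELD1 and 6137 on the empty vector array, a log2 difference of 0.40 (0.15 after loess). The partner of both light chains, Slc3a2, read 27194 and 23227 by its brightest probe, a log2 difference of 0.35 (0.04 after loess). Its other probe, 5994 bases upstream in the genome, read 104.5 on the array labelled MARVELD1 and 417.1 on the empty vector array, 3.66-fold lower with a log2 difference of -1.87. These 2 probes of Slc3a2 are the most divergent of any member gene, and a single direction cannot be given for it. The alternative heavy chain, Slc3a1 (rBAT), which in kidney and gut pairs with Slc7a9, was above background on neither array.

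The light chains of system y+L exchange cationic for neutral amino acids. Slc7a7 read 1094 on the array labelled MARVELD1 and 894.3 on the empty vector array, a log2 difference of 0.42. Slc7a6 gave 0.16 by its brightest probe, at 1061 and 1037, and 0.55 by a probe 1323 bases downstream. Slc7a6os, next to Slc7a6, gave 0.53. All of these values are positive and below 2-fold, but the median of all genes was also positive, at 0.19. The 0.16 of Slc7a6 lay below it.

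Among the cystine transporters, the 2 detected light chains differed in opposite directions. Slc7a11 (xCT) exchanges intracellular glutamate for extracellular cystine and so feeds glutathione synthesis. Its brightest probe read 73.6 on the array labelled MARVELD1 and 171.1 on the empty vector array, 2.13-fold lower with a log2 difference of -1.09 ± 0.28 (standard error of the spots). Its other measured probes gave -0.36 and -0.21, so all 3 were below 0, but only 1 passed 2-fold, and the mean over its probes was -0.55. For spots of 100 to 200, the range in which the brightest probe reads on average, the SD of a difference was 0.51. Slc7a9, known from kidney and intestine, read 490.4 on the array labelled MARVELD1 and 286.4 on the empty vector array, a log2 difference of 0.90, just inside the 2-fold limit. At these intensities the SD between single spots was 0.24. Slc7a12 at 0.28 and Slc7a15 at -0.13, both light chain relatives, read between 110.1 and 136.5 on either array and lay within the spot error.

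The system y+ group held the 2nd largest and the lowest difference of the members. Slc7a2 (CAT2), a cationic amino acid transporter that supplies arginine, read 51.1 on the array labelled MARVELD1 and 125 on the empty vector array. That is 2.24-fold lower, with a log2 difference of -1.16 ± 0.32 (standard error of the spots), from 1 dim probe, and -0.64 with normexp background correction. Beside the SD of 0.65 between single dim spots it lies within 2 SD. Slc7a1 (CAT1), the widely expressed arginine and lysine carrier, read 6779 and 11389 by its brightest probe, a log2 difference of -0.62. A second probe of Slc7a1, 4850 bases downstream, read 4236 on the array labelled MARVELD1 and 3775 on the empty vector array, a log2 difference of 0.29. The probes of Slc7a1 thus disagree in direction, and both are bright. Slc7a3 (CAT3) gave -0.01 and the related Slc7a14 -0.05, while a second Slc7a14 probe, not well above background on the empty vector array, was at least 1.54-fold higher. Of the 5 genes of this group, 1 was past 2-fold higher and 1 lower, and the median was -0.05.

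**Figure D2:**
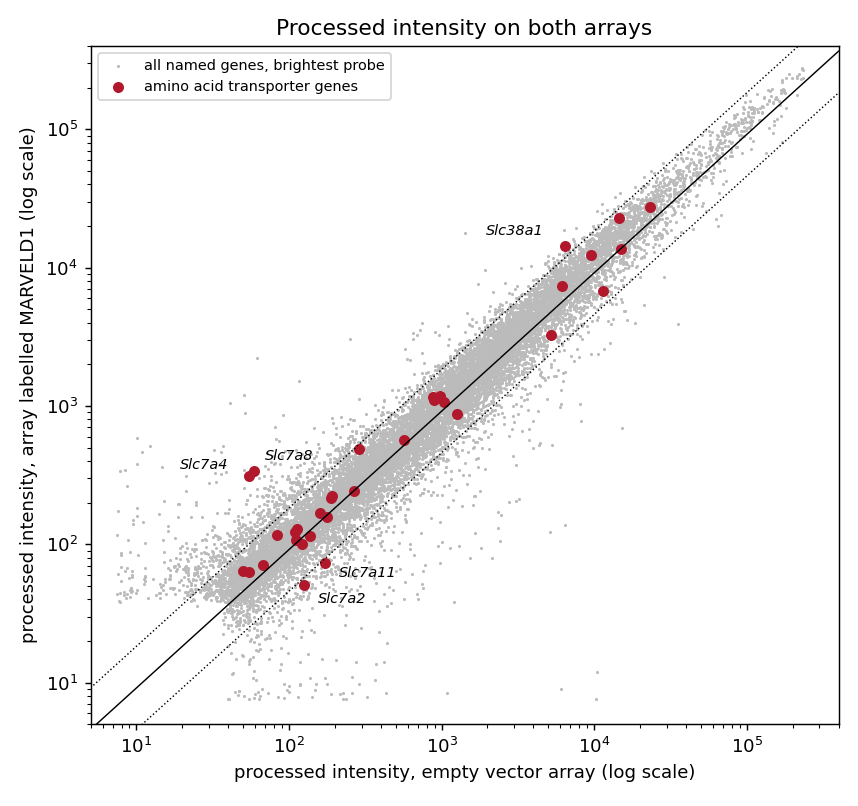
Processed intensity on the array labelled MARVELD1 (vertical, log scale) against the empty vector array (horizontal, log scale) for the brightest probe of each gene, grey for all named genes and red for amino acid transporter genes. The solid line marks equal values relative to the 75th percentile of each array and dotted lines 2-fold; Slc7a8 and Slc7a4 lie above 300 on the array labelled MARVELD1 and below 60 on the other, and Slc38a1 lies beyond 2-fold at 14296 and 6465.

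System A differed through Slc38a1. Slc38a1 (SNAT1), a sodium-coupled carrier of glutamine and other small neutral amino acids, read 14296 on the array labelled MARVELD1 and 6465 on the empty vector array, 2.42-fold higher with a log2 difference of 1.27 ± 0.20 (standard error of the spots). It was the member with the best probe coverage, and all 5 of its probes were higher. The probe 341 bases upstream of the brightest gave 1.34, and those at 616, 3128 and 4734 bases upstream gave 0.55, 0.75 and 0.74. The direction is therefore shared by 5 probes, and 2 of them pass 2-fold. With the mean over its probes the difference was 0.93, and with normexp background correction 0.96, both under 2-fold.

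Slc38a2 (SNAT2), the system A carrier known to be induced by amino acid starvation, did not share this difference. Its brightest probe read 13687 on the array labelled MARVELD1 and 15085 on the empty vector array, a log2 difference of -0.01 (-0.30 after loess). Its other probes gave 0.27, 0.19 and -0.36. Slc38a4 (SNAT4) read 221.7 and 191.1 by its brightest probe, a log2 difference of 0.34. A probe downstream of it read 58.1 on the array labelled MARVELD1 and 125.4 on the empty vector array, with -0.98. These 3 genes lie next to each other on chromosome 15, Slc38a1 and Slc38a2 0.112 Mb apart and Slc38a2 and Slc38a4 0.297 Mb apart by their probes, and their differences were unlike.

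The remaining SLC38 members stayed within 2-fold. Slc38a3, the system N carrier of glutamine, gave 0.33 at intensities of 216.4 and 187.9, and its relative Slc38a5 was not detected. Slc38a7, a lysosomal glutamine carrier, read 3229 on the array labelled MARVELD1 and 5249 on the empty vector array, a log2 difference of -0.57. It was lower under all 10 settings, but its only probe was measured on both arrays, so the filters and the choice of probe could not change it. Slc38a9, a lysosomal arginine sensor that signals to mTORC1, gave 0.11 and, by another probe, -0.30. Slc38a10 gave 0.49 at 12387 and 9604 (0.22 after loess), and -0.07 by a dim probe. Slc38a8 (0.61) and Slc38a11 (0.21) read under 200 on both arrays, and a second Slc38a11 probe was at least 1.29-fold lower.

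Slc1a5 (ASCT2), a system ASC exchanger through which many growing cells take up glutamine, read 22789 on the array labelled MARVELD1 and 14655 on the empty vector array, a log2 difference of 0.76 ± 0.20 (standard error of the spots). It ranged from 0.46 to 0.76 over the scalings. Its relative Slc1a4 (ASCT1), which exchanges alanine, serine and cysteine, read 875.1 and 1266, a log2 difference of -0.41. A second Slc1a4 probe read 316.1 on the array labelled MARVELD1 and 647.8 on the empty vector array, with -0.91. The system ASC genes thus differed in opposite directions, each under 2-fold. The glutamate transporters of system X-AG, best known from neurons and glia, were dim: Slc1a1 gave 0.33, Slc1a6 0.33 and Slc1a2 -0.16, with 0.21 from another probe, while Slc1a3 was not detected. A further Slc1a2 probe, on the opposite strand to the gene, gave 0.19. All of these values lie within the SD of a difference between single spots, which was 0.51 from 100 to 200 and 0.65 under 100.

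The SLC36 carriers showed small differences. Slc36a1 (PAT1), which moves small amino acids out of lysosomes and across the plasma membrane, read 1185 on the array labelled MARVELD1 and 980.3 on the empty vector array, a log2 difference of 0.40. Slc36a2 gave 0.47, Slc36a3 0.21 and Slc36a4 0.08, all at intensities under 200 on both arrays, and the sign of Slc36a4 turned under the 3 other scalings. Further probes gave -0.11 and 0.27 for Slc36a3 and -0.15 for Slc36a4. Slc36a1, Slc36a2 and Slc36a3 form a cluster on chromosome 11, where their probes lie within 0.0565 Mb of the next gene's.

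**Figure D3:**
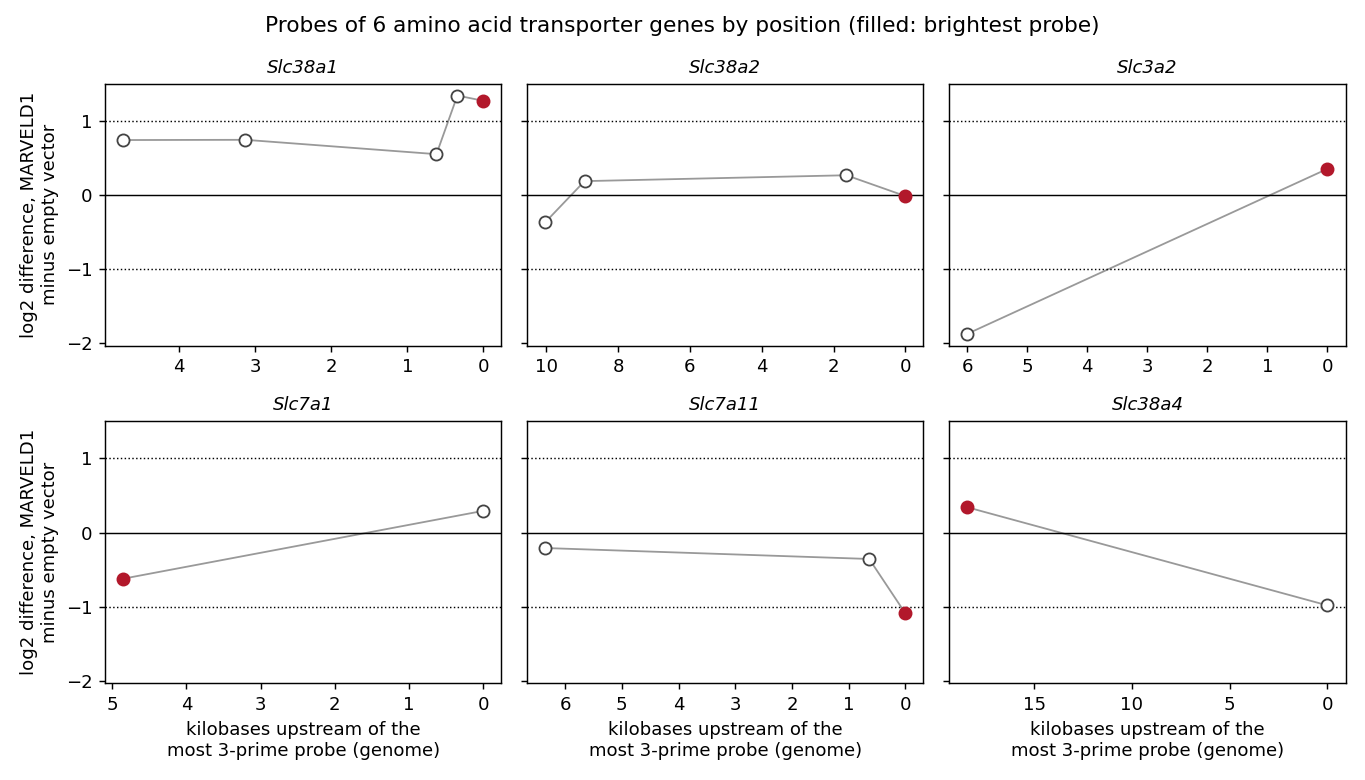
Log2 difference (array labelled MARVELD1 minus empty vector, vertical axis) of each probe of 6 amino acid transporter genes against its distance in kilobases upstream of the gene's most 3-prime probe (horizontal axis), with the brightest probe filled. All 5 probes of Slc38a1 and all 3 of Slc7a11 keep one sign, while Slc3a2, Slc7a1, Slc38a4 and Slc38a2 change sign between their probes.

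Where a gene had several probes, they often disagreed in sign. In 9 of the 13 member genes with 2 or more measured probes (69.2%) the signs were mixed, beside 45.9% of 5485 such genes among all. Some of the mixed signs came from values within the spot error, as in Slc36a4 at 0.08 and -0.15. The shares do not allow for the number of probes per gene. The range between the probes of a gene exceeded 1 on the log2 scale in 2 of the 13 (15.4%), Slc3a2 and Slc38a4, beside 20.2% of all such genes. The SD between probes was 0.60 for the members and 0.53 for all genes. Across the arrays, the most 5-prime probe of a gene tended to lie lower than the most 3-prime one, with a median of -0.35 for the 13 members and -0.23 for 5407 genes, and it was lower in 61.5% and 66.7% of them. For 18 member genes, among them Slc7a8, Slc7a4 and Slc7a2, only 1 probe was detected, so no second probe bears on them.

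Promoter windows were searched for the core of the C/EBP-ATF composite element, TGATGNAA, through which ATF4 raises transcription when amino acids are short. The motif was sought on both strands of the RefSeq windows, from 250 bases before to 50 bases after the start of each gene (GRCm38.p6). Windows were given for 28 of the member genes, and 4 of their 38 windows held it, beside 1304 of all 32851 windows (3.97%). They belong to Slc7a11, with 2 overlapping stretches, to Slc1a4 and to Slc7a7, with 2 windows of its own. The genes with the motif went both ways, with log2 differences of 0.42 for Slc7a7, -1.09 for Slc7a11 and -0.41 for Slc1a4. Only the stretches of the 2 members that were lower are shown, with the motif in capitals, on the strand of the gene.
Slc7a11, chr3:50443661-50443690, minus strand: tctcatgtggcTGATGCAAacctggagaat
Slc7a11, chr3:50443642-50443671, minus strand: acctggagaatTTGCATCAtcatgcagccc
Slc1a4, chr11:20332699-20332728, minus strand: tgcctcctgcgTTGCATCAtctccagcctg
The motif begins 66 and 47 bases before the start of Slc7a11 and 4 bases before that of Slc1a4. These matches describe the letters of the windows only.

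Other genes that handle amino acids were described by lists, each gene by its brightest probe. Of all genes, 5.39% were past 2-fold higher and 3.53% lower. Of 26 ATF4 and amino acid response genes, 1 was past 2-fold higher and 3 were lower, with a median of -0.22 beside 0.19 for all genes. The median was below that of all genes under each of the 3 other scalings too, at -0.33 with the array median, -0.38 with quantile normalization and -0.43 after loess. Chac1, which degrades glutathione, read 4142 on the array labelled MARVELD1 and 12400 on the empty vector array, 2.74-fold lower. Gpt2, the mitochondrial alanine aminotransferase, was 2.03-fold lower, at 1203 and 2667. Vldlr, a lipoprotein receptor, gave -3.16 by its brightest probe, or 8.96-fold lower, and -0.71 by another. Cbs, which makes cystathionine from serine and homocysteine, was 4.39-fold higher, at 249.3 on the array labelled MARVELD1 and 62.0 on the empty vector array. The next highest, the transcription factor gene Cebpg, gave 0.59, but -0.61 and 0.44 by other probes.

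The 20 cytosolic aminoacyl-tRNA synthetase genes, which load amino acids onto tRNA, had a median of 0.31 and 0 past 2-fold in either direction. By their brightest probes 19 of 20 were above 0, but 17, 16 and 15 were with the array median, quantile normalization and loess. Above the median of all genes lay 14 of 20, and 14, 11 and 14 under those scalings. Qars (0.77) and Hars (0.72) were highest, and Aars (0.09) and Yars (-0.30) lowest. Other probes differed widely, with -3.33 for Qars, -1.52 for Eprs, -1.49 for Dars, -1.11 for Aars and 1.57 for Hars. Of 27 genes for mTORC1 itself and for amino acid sensing upstream of it, 0 passed 2-fold by their brightest probes. The median was 0.19, as for all genes. With the array median both were 0.08, but the list lay at -0.06 beside 0.07 with quantile normalization and at -0.12 beside 0.04 after loess. Depdc5, a subunit of the GATOR1 inhibitor complex, gave 0.84 and, by another probe, 0.11, and the Ragulator gene Lamtor2 0.66. Rragc, a Rag GTPase gene, gave -0.51 and -1.41, and the arginine sensor gene Castor1 was at least 1.71-fold lower. Other probes of Seh1l (-1.63), Sec13 (-1.02) and Sesn2 (-1.02) were past 2-fold lower too, and none of the list was past 2-fold higher.

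For glutamine, glutamate and glutathione synthesis, 1 of 13 genes was past 2-fold higher and 2 were lower, with a median of 0.20, and of 0.09, 0.04 and -0.03 with the array median, quantile normalization and loess. Gclm, the modifier subunit of the enzyme that makes the first bond of glutathione, read 250.3 on the array labelled MARVELD1 and 763.6 on the empty vector array, 2.79-fold lower. Gpt2, which is also in the ATF4 list, was the other. Ggct, which releases 5-oxoproline from gamma-glutamyl peptides, gave 1.08 by its brightest probe, or 2.11-fold higher, and 0.16 by another, and it was under 2-fold (0.97) with the array median. The aspartate aminotransferase gene Got2 gave 0.75.

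Carriers of other families were set beside the members. Among 11 detected carriers of the plasma membrane, 0 were past 2-fold higher and 1 was lower, with a median of -0.00074 (-0.11, 0.0068 and -0.07 under the other scalings, in the same order). Slc6a9 (GLYT1), a glycine transporter, read 1647 on the array labelled MARVELD1 and 5650 on the empty vector array, 3.14-fold lower by its only probe. Slc6a6 gave -0.38 by its brightest probe and -1.53 by another. Slc43a2, a carrier of large neutral amino acids, gave 0.43, its relative Slc43a1 was at least 1.41-fold lower, and Slc6a18 was at least 1.70-fold higher. Of 15 carriers of mitochondria, lysosomes and synaptic vesicles, 1 was higher and 1 lower, with a median of 0.0038 (-0.10, -0.05 and -0.08). Slc25a22, a mitochondrial glutamate carrier, read 73.4 on the array labelled MARVELD1 and 974.6 on the empty vector array, 12.2-fold lower by its only probe. Slc17a7, a vesicular glutamate transporter, was 2.05-fold higher at 89.3 and 47.6, which is within 2 SD of dim spots and under 2-fold with each of these scalings. Slc25a13, an aspartate and glutamate carrier, gave 0.88, and the vesicular glutamate transporter gene Slc17a8 -0.59. Of 7 detected accessory and trafficking genes 0 passed 2-fold. Cd44, whose product stabilises xCT at the cell surface, gave 0.70, but 0.03 and 0.33 by other probes. Sgk1 gave 0.06 and, by another probe, -0.59, while Bsg gave -0.23 and Nedd4l, a ubiquitin ligase gene, -0.72.

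**Figure D4:**
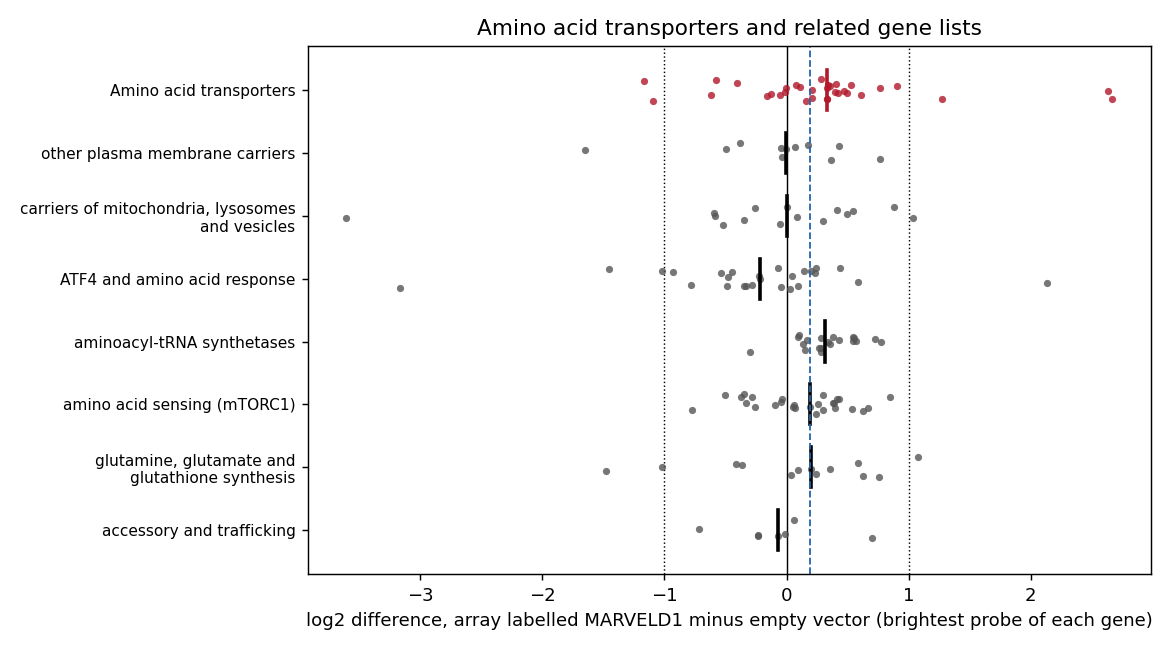
Log2 differences (array labelled MARVELD1 minus empty vector, horizontal axis) of the brightest probe of each gene in the amino acid transporter set (red) and in related lists (grey), with the median of each as a vertical bar. The dashed line is the median of all named genes (0.19) and dotted lines mark 2-fold; the transporters' median is 0.33 and that of the ATF4 and amino acid response list -0.22.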

How the data were processed

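Total RNA of 2 NIH3T3 lines was labelled with Cy3 and hybridised to 1-colour Agilent arrays, 1 per group, on 1 slide in 1 scan. The deposited scanner files hold, per the file headers, processed fluorescence intensity from Agilent Feature Extraction 9.5.3.1, background-subtracted and not scaled between arrays. The authors' deposited table of 26851 probes holds the same intensity divided by 1 factor per array, 123.3 for MARVELD1 and 124.6 for empty vector (99.7% and 99.6% of probes within 1%), with column medians of 2.94 and 3.11. Its stated scale is not given in the sources used here.

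Here, each processed intensity was divided by the 75th percentile of its array (703.3 and 768.1), and its log2 was averaged over the spots of each probe. Outlier spots (223 and 116) were left out, and 0 were saturated. Probes were named through RefSeq (GRCm38.p6, names only): of 41082 usable probes 24794 matched by accession, 6036 by symbol and 1805 by an older name, and 8447 stayed unnamed. A gene's brightest probe stood for it. A probe that only 1 array measured well has a bound, against the lowest well-measured intensity of the other (36.0 for MARVELD1, 36.5 for empty vector, each a mean over 10 spots; the lowest single spots well above background read 38.1 and 36.6) or the probe's own value, if higher. The limit of 2-fold is one of size.

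Named were all detected members, and from each other list of amino acid genes the 2 highest, the 2 lowest and any past 2-fold. Some list genes with another probe past 2-fold were named too. From the cell type markers those past 2-fold were named. The members and lists were chosen with earlier results of these data known. Alternatives were other scalings (array median, quantile, loess), normexp with an offset of 50, the authors' table, the mean of all probes, no filter on dim probes or a filter on both arrays, the most 3-prime probe and limits of 1.5-fold and 3-fold. R 4.3.3 with limma 3.58.1 and Python 3.11.15 were used, and the calculation was tested on simulated data.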

Additional observations from a re-analysis of the deposited data

How the results depend on the processing

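With 1 array per group no replicate could be left out, and no paired analysis was possible because each group has 1 array. Of 297 member gene values under 9 alternatives, 286 moved by less than the SD of 0.39 between single spots and 11 by more. Many of these values could not move by more, so the count is no measure of robustness. The filters leave members measured on both arrays as they were, and the choice of probe leaves a gene with 1 detected probe as it was. The array median and the authors' deposited values shift all genes by one amount, which was smaller than this SD. Among the members, 2 stayed past 2-fold in each of the 10 settings, Slc7a8 and Slc7a4, at 1.74 and 1.65 with normexp. Both have 1 probe, so the same limit holds for them. With normexp 0 members were past 2-fold lower, with Slc7a2 at -0.64, beside 425 of all genes (2.57%). Past 2-fold higher were 304 of all genes (1.84%) with normexp. The authors' deposited values put 479 of all genes past 2-fold higher. Without a filter on dim probes 6 members were higher (6.65% of all genes), the added ones being above background on neither array. With the mean of all probes 1 member was lower (3.35% of all genes). A limit of 1.5-fold gave 6 members higher, and 3210 higher (19.4%) and 1482 lower (8.96%) of all genes. A limit of 3-fold gave 0 members lower, and 200 higher (1.21%) and 216 lower (1.31%) of all genes. The all-gene median was 0.19 in the main setting and 0.08, 0.07 and 0.04 with the array median, quantile normalization and loess, and that of the members 0.33, 0.22, 0.16 and 0.15. In the related lists 15 of 246 gene values moved by more than the SD of 0.39, among them Qars at -1.28 and Hars at 1.15 with the mean of all probes. Many of the others could not move by more, for the same reasons. Apart from the limits themselves, the cause of these changes was not tested. Dim signal limits what can be said of members under 200, where the SD between single spots was 0.60.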
